A study of Mus musculus with 29 samples.

Results

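The adult arm of this Myt1l study comprised 12 ATAC-seq libraries of mouse prefrontal cortex, of the 29 libraries in the series: 6 WT libraries, with both Myt1l alleles intact, and 6 Het libraries, with 1 allele lost. Each genotype held 3 males and 3 females. Genotype and sex were taken from the labels, and regions were kept at a mean of at least 1 CPM over the 12 libraries, which left 173029 of the 237287 adult regions. CPM is the read count of a region scaled to the size of its library. All 12 libraries come from a line that the labels describe as a MYT1L knockout, and they give neither the strain, the exact age nor the edit itself. Nothing there states that each library is a separate animal, so the p-values below measure the spread between libraries, which may be partly technical.

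MYT1L is a zinc finger transcription factor made mainly by neurons. It binds DNA and recruits repressor complexes, and it is known for holding down genes of non-neuronal lineages while neurons form. In people, loss of 1 copy of the gene causes a neurodevelopmental syndrome with intellectual disability and often obesity, so an adult animal with 1 lost allele carries the gene dosage of the human condition. Regulatory DNA in use is kept free of nucleosomes. ATAC-seq reads it out with a transposase that cuts and tags open DNA, so a higher value at a region means more open chromatin there. In bulk cortex, fewer cells of a type that opens a region and less opening per cell cannot be told apart. The deposited table names regions by number only, with no gene or coordinate, so the tissue label could not be checked against cell type markers, the Myt1l locus could not be used to check the genotypes, and no sequence or gene is tied to a region here.

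The libraries resembled one another closely before genotype was considered. Correlations of log2 CPM ran from 0.959 to 0.992 between libraries of the same genotype and sex (12 pairs, median 0.970) and from 0.959 to 0.983 between genotypes within a sex (18 pairs, median 0.971). All libraries had an upper quartile of 4.64 CPM and summed to between 994270 and 1041643 CPM. The number of reads behind each library is unknown. Over all tested regions, 13.5% of the variation among libraries lay along genotype, 20.4% along sex and 62.8% along neither these nor their combination. For comparison, 8 of the 11 principal components of the same values held 8.36% to 21.2% each, and the other 3 held 0.0226% or less each. The genotype share thus lies within the range of single components. The values had been adjusted for unwanted variation by the authors before these shares were taken.

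The direction of variation with the second largest share separated the genotypes. Component 1 of a principal component analysis held 21.2% of the variance and divided males from females. Component 2 held 15.0% and placed all 6 Het libraries above all 6 WT libraries. Its scores, in log2 per region as a root mean square, were -0.174 in WT replicate 62, -0.0899 in WT replicate 58, -0.0860 in WT replicate 1, -0.0414 in WT replicate 35, -0.0242 in WT replicate 7 and -0.00335 in WT replicate 28. The Het scores were 0.0106 in replicate 21, 0.0276 in replicate 50, 0.0453 in replicate 11, 0.103 in replicate 41, 0.113 in replicate 47 and 0.120 in replicate 44. The groups did not overlap, though the WT library nearest to Het and the Het library nearest to WT lay close together.

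Genotype accounted for 66.0% of the spread on component 2, with means of -0.0698 ± 0.0614 in WT and 0.0698 ± 0.0476 in Het (SD, n = 6 each, two-sided exact permutation p = 0.00217, the smallest that 924 arrangements can give, and 0.0173 after Benjamini-Hochberg adjustment over 8 components). The Het minus WT difference was 0.175 in males and 0.105 in females. On component 1 genotype accounted for 0.481% (exact permutation p = 0.771, adjusted 0.910). These tests were chosen after the data were examined. Leaving out WT replicate 62 took the genotype share of component 2 to 23.6% (exact permutation p = 0.134), leaving out WT replicate 1 to 40.2% and leaving out Het replicate 44 to 41.2%. The authors' adjustment removed variation among libraries beforehand, as described further on, and its part in this separation was not tested. The 3 components that hold almost no variance contain 0.0667% of the genotype contrast, 0.0844% of the sex contrast and 68.7% of the genotype by sex contrast. For a single library's own direction the share is 25% on average. The permutation test treats all arrangements of the labels alike, which these values do not, so its p-values may be too small.

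**Figure D1:**
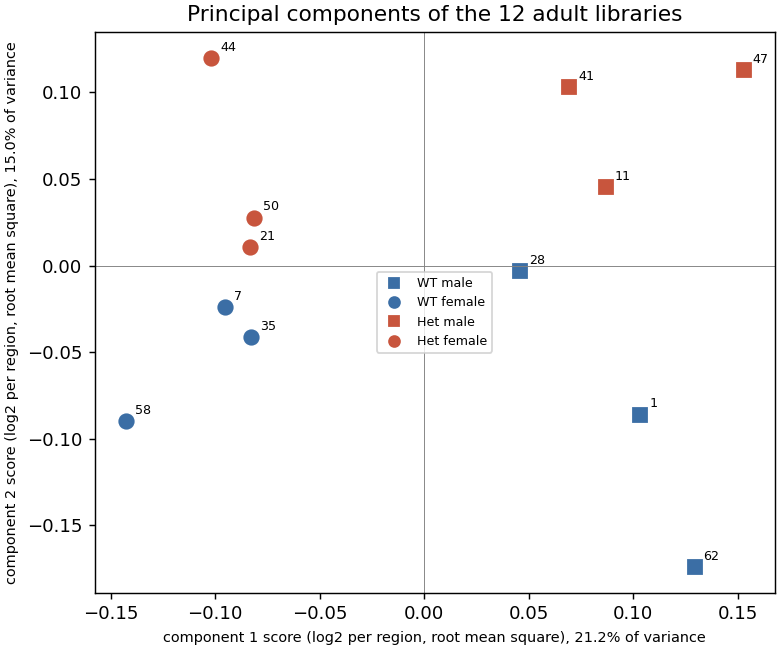
Scores of the 12 adult libraries on components 1 and 2 (axes in log2 per region, root mean square), with squares for males, circles for females, blue for WT and red for Het, and the replicate number beside each point. All 6 males lie to the right of all 6 females on component 1, and all 6 Het libraries lie above all 6 WT libraries on component 2.

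Summary measures of each library did not separate the genotypes. The median level was 3.11 ± 0.0158 CPM in WT and 3.11 ± 0.0194 CPM in Het (SD, n = 6 each, exact permutation p = 0.844). The interquartile range of log2 CPM was 1.80 ± 0.0220 and 1.80 ± 0.0196 (exact permutation p = 0.727). All libraries share an upper quartile of 4.64 CPM in the deposited values, which limits beforehand how far these 2 measures can differ. They therefore cannot show whether total openness differed between the genotypes. The 10% most open regions held 42.2 ± 0.543% of summed CPM in WT and 41.6 ± 0.626% in Het, a difference of -0.600 percentage points (exact permutation p = 0.108, adjusted 0.433 over 4 measures). That difference was -0.506 in males and -0.694 in females. It was -0.770 when WT replicate 7 was left out (exact permutation p = 0.0433) and -0.768 when Het replicate 41 was (exact permutation p = 0.0498). At most 7 tested regions of any library stood at the lowest value of the table, 0.0775 CPM, with 0 to 7 in WT and 0 to 5 in Het (exact permutation p = 0.719). These counts divided by sex, with 4 to 7 in each female library and 0 or 1 in each male library.

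Region by region, differences between Het and WT were small. The middle 90% of tested regions ran from -0.27 to 0.26 log2, with a median of -0.01, and 1280 regions differed by more than 0.5 log2. The 95% confidence interval of the difference lay within 0.5 log2 of 0 at 84.4% of regions and within 1 log2 at 99.8%. It lay within 0.25 log2 at 29.7%, so at the other regions a shift of that size or more in at least 1 direction lies inside the interval. These intervals depend on the fit. In the fit with 3 added covariates described further on, the shares were 19.5% within 0.25 log2, 75.8% within 0.5 log2 and 99.8% within 1 log2.

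With genotype and sex fitted together in limma, 803 regions (0.464% of those tested) passed a Benjamini-Hochberg adjusted p of 0.05. Of these, 371 (0.214%) were higher in Het and 432 (0.250%) lower. The median size among the called regions was 0.38 log2, a 1.31-fold change, against 0.10 log2 over all tested regions. The rises had a median of 0.42 log2 at a median level of 4.20 CPM, and the falls a median of -0.35 log2 at 5.75 CPM. The smallest adjusted p was 0.00876, and an adjusted p of 0.01 left 2 regions, 1 higher and 1 lower. At an unadjusted p under 0.05 in limma, 28131 regions (16.3%) differed.

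In 2226 tested regions (1.29%) the 6 Het values and the 6 WT values did not overlap at all, with Het above WT in 947 and below in 1279. Among the 803 called regions, which the same values chose, 479 were of this kind, 217 higher and 262 lower. The remaining called regions had at least 1 library inside the range of the other genotype.

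A set of 4 regions shows the largest calls with separate groups at a mean of at least 4 CPM, well above the lowest values. By size they rank 88 and 113 among the 371 called rises and 94 and 100 among the 432 called falls. They are the pair of largest rises and the pair of largest falls among the 272 called regions whose groups do not overlap and whose mean is at least 4 CPM. Their separation is thus part of the rule that chose them, and they are not typical. Of all 803 calls, 479 had separate groups, and the median size was 0.38 log2. The deposited table does not tie them to genes, so they are given by identifier.

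The region all_pfc_peak_97085 was more open in Het and had the smallest p-value of all tested regions. It measured 4.72, 4.95 and 5.69 CPM in the WT females 7, 35 and 58 and 5.30, 5.06 and 5.03 CPM in the WT males 1, 28 and 62. In Het it measured 7.11, 8.34 and 7.19 CPM in the females 21, 44 and 50 and 7.46, 7.07 and 8.12 CPM in the males 11, 41 and 47. The lowest Het library stood 1.38 CPM above the highest WT library. The mean rose from 5.12 ± 0.336 to 7.55 ± 0.549 CPM (SD, n = 6 each), a difference of 0.56 log2 (SE 0.07, 95% confidence interval 0.42 to 0.70, limma adjusted p = 0.00876), or 1.47-fold. The rise was nearly the same in males, 0.56 log2, and females, 0.56 log2. This region was called in each of the 12 fits that leave out 1 library.

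The region all_pfc_peak_59358 was likewise more open in Het, with a narrower gap between the groups. The WT females 7, 35 and 58 measured 3.87, 3.25 and 3.86 CPM and the WT males 1, 28 and 62 measured 3.31, 3.59 and 3.43 CPM. The Het females 21, 44 and 50 measured 4.60, 5.89 and 6.15 CPM and the Het males 11, 41 and 47 measured 4.33, 4.64 and 5.30 CPM. The Het libraries spread more widely than the WT libraries, and the groups were 0.464 CPM apart. The means were 3.55 ± 0.268 and 5.15 ± 0.747 CPM (SD, n = 6 each), a rise of 0.53 log2 (SE 0.09, limma adjusted p = 0.0206), of 0.46 log2 in males and 0.59 log2 in females.

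The region all_pfc_peak_128267 was less open in Het. Its WT values were 7.34, 8.89 and 8.65 CPM in the females 7, 35 and 58 and 7.68, 8.08 and 7.52 CPM in the males 1, 28 and 62. Its Het values were 4.99, 6.47 and 6.26 CPM in the females 21, 44 and 50 and 5.10, 4.52 and 6.15 CPM in the males 11, 41 and 47. The highest Het library lay 0.873 CPM below the lowest WT library. The mean went from 8.03 ± 0.629 to 5.58 ± 0.810 CPM (SD, n = 6 each), a difference of -0.53 log2 (SE 0.08, limma adjusted p = 0.0151), of -0.57 log2 in males and -0.49 log2 in females. It was called in 11 of the 12 fits that leave out 1 library, and not without WT replicate 1 (limma adjusted p = 0.0590).

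The region all_pfc_peak_2856 was also less open in Het. Its WT values were 6.30, 5.10 and 5.81 CPM in the females 7, 35 and 58 and 5.14, 5.18 and 5.14 CPM in the males 1, 28 and 62. Its Het values were 3.98, 3.94 and 3.48 CPM in the females 21, 44 and 50 and 4.29, 3.40 and 3.67 CPM in the males 11, 41 and 47. The groups stood 0.812 CPM apart. The mean went from 5.45 ± 0.496 to 3.79 ± 0.338 CPM (SD, n = 6 each), a difference of -0.52 log2 (SE 0.08, limma adjusted p = 0.0151), of -0.45 log2 in males and -0.59 log2 in females. Like all_pfc_peak_59358, it lost its call without WT replicate 1, WT replicate 58 or Het replicate 44, with limma adjusted p from 0.0514 to 0.0854 over both regions. None of these 4 regions was called for sex in the same fit. Without the sex term, all_pfc_peak_59358 (limma adjusted p = 0.0757), all_pfc_peak_128267 (0.0589) and all_pfc_peak_2856 (0.0589) were not called.

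**Figure D2:**
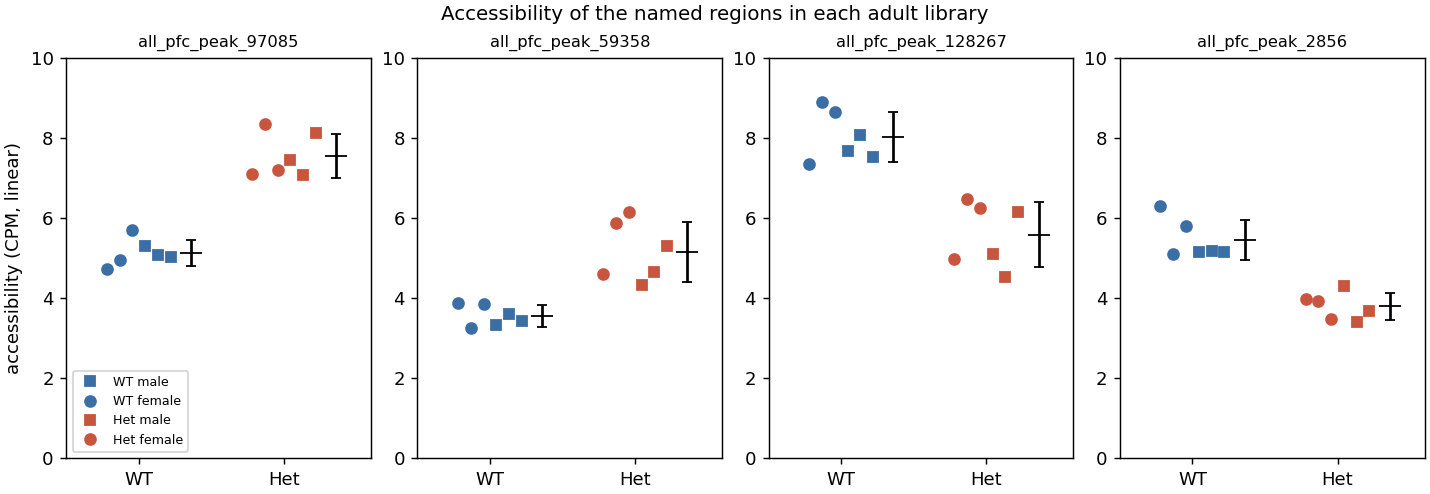
Accessibility in CPM (linear axis from 0) of the 4 named regions in each adult library, with circles for females and squares for males, WT in blue and Het in red, and the mean and SD of each group in black beside its points. In every panel the 6 Het libraries and the 6 WT libraries occupy separate ranges, as the rule that chose the regions requires. The ranges are 1.38 CPM apart in all_pfc_peak_97085 and 0.464 CPM apart in all_pfc_peak_59358.

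Called regions were found at every level of openness, but the direction of change depended on the level. Among regions of 1 to 2 CPM, 73 were higher and 74 lower in Het, with a median size of 0.65 log2. From 2 to 4 CPM, 105 were higher and 90 lower, and from 4 to 8 CPM 109 and 95. From 8 to 16 CPM, 69 were higher and 79 lower, at a median size of 0.27 log2. Up to this level rises and falls were near equal in number.

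Above it, falls dominated. From 16 to 32 CPM, 15 regions were higher and 77 lower, and from 32 CPM upward 0 were higher and 17 lower. At 16 to 32 CPM 0.963% of 7997 tested regions were called lower and 0.188% higher. The called falls were shallow there, with a median size over both directions of 0.23 log2 at 16 to 32 CPM and 0.18 log2 at 32 to 64 CPM. The whole level shifted with them: the median difference was -0.03 log2 over all regions of 16 to 32 CPM and -0.05 log2 over those of 32 to 64 CPM, against -0.00087 log2 at 4 to 8 CPM.

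This preponderance of falls was not seen under every scaling of the libraries or in every fit. At 16 CPM and above, 94 of 109 called regions (86.2%) were lower in Het with the values as deposited. After quantile normalization 121 of 240 were lower and 119 higher, and after cyclic loess normalization 120 of 225 were lower and 105 higher. The median difference of these regions was -0.0394 log2 as deposited, -0.00230 log2 after quantile normalization and -0.00390 log2 after cyclic loess. Centring each library on its median gave 74 lower and 15 higher. In the fit with 3 added covariates described further on, 6 of these regions were called, 3 higher and 3 lower. Their median difference over all tested regions of this level stayed at -0.0394 log2. So few calls say little about direction. Why these settings differ was not tested. Over all levels the called regions went from 371 higher and 432 lower to 650 and 592 with quantile normalization and to 648 and 558 with cyclic loess.

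**Figure D3:**
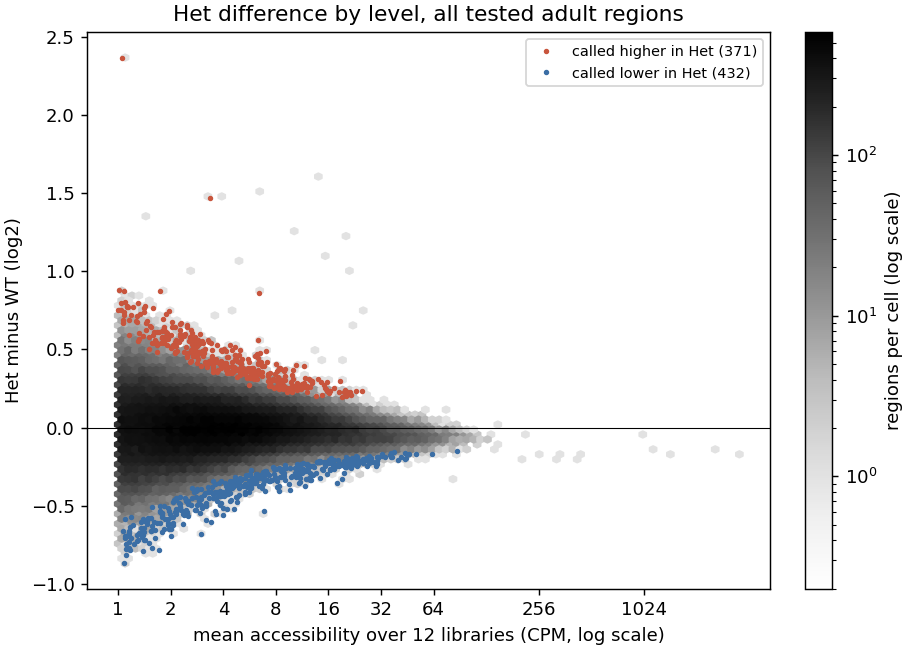
Het minus WT difference in log2 against mean accessibility in CPM (log axis) for all tested regions, shaded by the number of regions per cell, with the 371 called rises in red and the 432 called falls in blue. The sizes that are called shrink as the level rises, and above 32 CPM all called regions lie below 0.

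**Figure D4:**
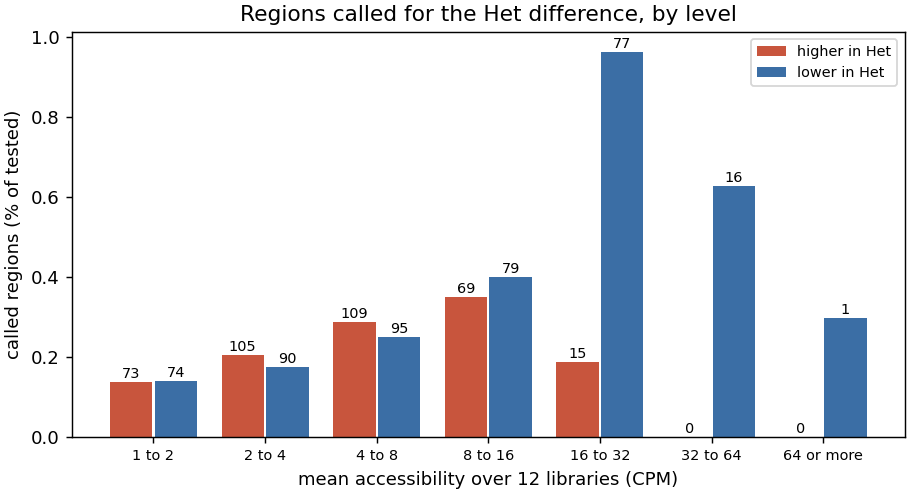
Share of tested regions called higher (red) and lower (blue) in Het, in percent, by mean accessibility in CPM, with the number of called regions above each bar, for the values as deposited. Rises and falls are near equal up to 16 CPM, and 77 falls stand against 15 rises from 16 to 32 CPM.

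Males and females gave similar Het differences at the called regions. The difference had the same sign in both sexes at all 803, which the joint fit favours by its choice, and at 71.9% of all tested regions. At the called regions its median size was 0.39 log2 in males and 0.38 log2 in females, and the male and female differences were a median of 0.06 log2 apart. The test of the difference between the sexes called 0 regions (0%) in limma and had 67 (0.0387%) at an unadjusted p under 0.05, which is far below the 5% that a test gives without any effect. A set of 3 directions of variation among libraries holds almost nothing in the deposited values, 0.0226% of the variance or less each, and 68.7% of the genotype by sex contrast lies within them, against 0.0667% of the genotype contrast. The similarity of the sexes was therefore measured on values that hold little of that contrast. With these 3 directions as covariates 14 regions (0.00809%) were called in limma for the difference between the sexes, all 14 with a higher Het minus WT difference in males. In that fit 7363 of the 173029 tested regions had an unadjusted p under 0.05, still below the 5% given above.

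Regions called for genotype were also called for sex more often than the average tested region. Males differed from females at 12543 regions (7.25%) in limma, and 113 of the 803 genotype calls (14.1%) were among them, 63 of the 371 rises and 50 of the 432 falls. Those 113 are 0.901% of the sex calls. Both kinds of call depend on level, and within each level up to 64 CPM the share was higher among the genotype calls too. It was 9.52% against 4.66% of tested regions at 1 to 2 CPM, 18.6% against 9.41% at 4 to 8 CPM, and 14.1% against 9.28% at 16 to 32 CPM. The residual spread of a region enters both tests, and its part in this overlap was not tested.

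The 3 near-empty directions bear on the genotype calls as well. The limma fit counts 9 residual degrees of freedom, and with the 3 directions as covariates it counts 6. The differences barely moved, with a median size of 0.38 log2 at the 803 regions in both fits and the same sign at all of them, but the median SE over tested regions went from 0.10 to 0.13 log2. In that fit 24 regions (0.0139%) were called, 17 higher and 7 lower, of which 14 were among the 803. At an unadjusted p under 0.05, 14581 regions (8.43%) differed in that fit, and all 803 were among them. Of the named regions, all_pfc_peak_97085 (limma adjusted p = 0.00250) and all_pfc_peak_128267 (limma adjusted p = 0.00482) stayed called, while all_pfc_peak_59358 (limma adjusted p = 0.0734) and all_pfc_peak_2856 (limma adjusted p = 0.0589) did not.

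Of those 24 regions, 11 bear the last 70 region numbers of the table, and the other 13 comprise 6 rises and 7 falls. The last 70 numbers hold 45 tested regions, taken out as a set after their values were seen. They include all 11 tested regions whose Het difference exceeds 1 log2, numbered 242704 to 242770. Elsewhere no difference exceeded 0.88 log2. The spread within groups was also wider, with a median residual SD of 0.45 log2 against 0.17 log2 over all tested regions. Their mean deviation per library ran from -1.37 log2 in WT replicate 58 to 0.19 log2 in WT replicate 1, and from -0.46 log2 in Het replicate 50 to 1.17 log2 in Het replicate 47. The Het males 11, 41 and 47 were the 3 highest libraries and the Het females lay within the WT range. Of these 45 regions, 12 were called for sex in limma, where 7.25% of all tested regions were. The 45 regions include all 8 sex calls of the table that exceed 4 log2.

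The near-empty directions were spread unevenly over the libraries. On average 25% of a library's own direction lies in them, but the share was 68.7% for WT replicate 1, 46.3% for Het replicate 44 and 37.5% for Het replicate 21, and 1.83% for WT replicate 7. The values of WT replicate 1 lay closest to the fit, with a residual root mean square of 0.0752 log2 against 0.141 to 0.222 log2 in the other 11 libraries. WT replicate 1 also shared the highest correlation of any pair, 0.992, with WT replicate 62.

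The number of called regions followed single libraries. Leaving out WT replicate 1 left 3 called regions, and leaving out Het replicate 44 left 4. For the other WT libraries the count fell to 27 (replicate 58), 55 (replicate 62), 139 (replicate 28) and 207 (replicate 35), and for the other Het libraries to 32 (replicate 21), 90 (replicate 47), 333 (replicate 50) and 334 (replicate 11). Leaving out WT replicate 7 gave 803 regions and leaving out Het replicate 41 gave 986, of which 496 and 561 were among the 803 of the full fit. The 2 libraries with the largest shares in the near-empty directions were those without which fewest regions were called. When limma weighted the libraries by their spread, WT replicate 1 received a weight of 215 against 0.345 to 1.67 for the others, and 20389 regions were called.

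**Figure D5:**
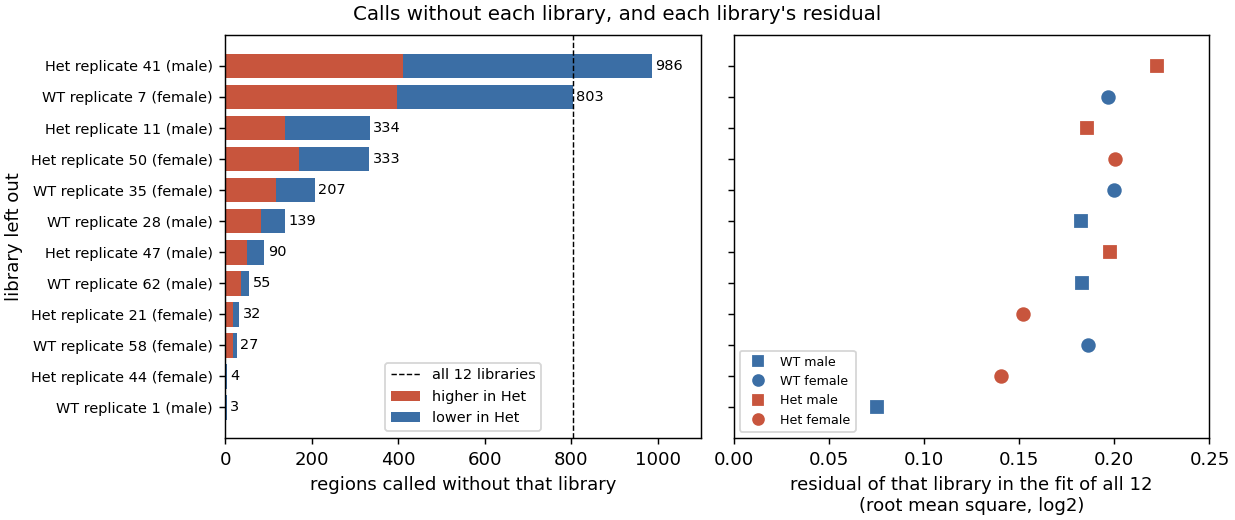
Left, regions called higher (red) and lower (blue) in Het when the library on the vertical axis is left out, with the total beside each bar and a dashed line at the 803 of the full fit. Right, the residual of the same library in the full fit as a root mean square in log2 (squares males, circles females), where WT replicate 1 lies at 0.0752 and the others between 0.141 and 0.222.

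Few regions were called whichever library was left out. Of the 803 regions, 732 (91.2%) were called in at least 1 of the 12 fits that leave out a library, 307 (38.2%) in at least 3, 96 in at least 6 and 29 (3.61%) in at least 9. Those 29 comprised 19 rises and 10 falls. In all 12 fits, 3 regions were called, 1 higher and 2 lower, and the rise is all_pfc_peak_97085.

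Each left-out library was also placed against the 1000 regions of smallest p in the fit made without it. WT replicate 1 lay on the WT side of the midpoint between genotypes at 99.8% of them, Het replicate 44 on the Het side at 90.7%, WT replicate 62 on its own side at 81.1% and Het replicate 21 at 78.7%. Het replicate 47 lay on its own side at 74.9%, WT replicate 58 at 74.0%, WT replicate 28 at 68.8%, WT replicate 35 at 66.3%, Het replicate 11 at 59.4% and Het replicate 50 at 59.3%. For WT replicate 7 the share was 54.2% and for Het replicate 41 it was 52.7%. Over all tested regions the shares were 70.8% for WT replicate 1 and 49.7% to 60.5% for the other 11. WT replicate 7 and Het replicate 41 had the lowest shares among the selected regions, and over all tested regions WT replicate 7 lay at 49.7%. The deposited values of every library were adjusted together, so a left-out library is not independent of the rest. WT replicate 1 and Het replicate 44, with the largest shares in the near-empty directions (68.7% and 46.3%), had the highest own-side shares. WT replicate 7 and Het replicate 41, with the smallest (1.83% and 6.52%), had the lowest. The own-side shares are therefore not a check of the calls on separate data.

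Called regions were found throughout the region numbers. In blocks of 25000 numbers, the share called ran from 0.343% to 0.550% of tested regions, and only 2 pairs of called regions had consecutive numbers, both pairs moving in the same direction. Such wide blocks do not show the last 70 numbers, where 3 of the 45 tested regions (6.67%, against 0.464% overall) were called. No source used here says whether neighbouring numbers are neighbours in the genome.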

How the data were processed

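The authors deposited 1 table of adult regions holding log2 CPM per library after an adjustment for unwanted variation (RUVr), per the table's title. Reads were processed against mm10, and Trimmomatic, Bowtie2, STAR and HTSeq are named without roles, per the submitters' processing notes. The sources used here give neither the peak caller nor the number of RUVr factors. Values were tested as deposited, with no pseudocount, in limma 3.58.1 (R 4.3.3), with genotype and sex as terms, an empirical Bayes trend and Benjamini-Hochberg adjustment over all 173029 regions that averaged 1 CPM or more. The near-empty directions are the last 3 of the 11 components of the centred table. Single values per library were compared by two-sided exact permutation tests. Named regions are the 2 that rose most and the 2 that fell most among calls of at least 4 CPM whose groups do not overlap. Each of the 12 libraries was left out in turn, and filter, scaling, pseudocount, sex term, weights and threshold were varied. The fit was tested on simulated data with independent noise in every library. That setting lacks the near-empty directions, so it cannot show the error rate of the calls in the deposited values. Members, rules and tests were chosen with earlier results of these data known. Counting intervals are left out because the depth is unknown. The embryonic table was used only for its number of regions. The labels give the genotypes no replicate numbers in common, so no block was fitted.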

Additional observations from a re-analysis of the deposited data

Results flagged for a closer look

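Single libraries stood far from the rest of their genotype in 2 of the 32 sets of 6 values that were checked (1.6 would be flagged by chance). On component 3, WT replicate 28 scored 0.0693 against -0.0400 to -0.00344 in the other WT libraries. On component 8, WT replicate 7 scored -0.174 against 0.00749 to 0.0592. Neither component separated the genotypes (exact permutation p = 0.996 and 0.714). Outside the regions tested in the report, 64258 regions lay under 1 CPM. A limma fit without the filter called 41 of these 64258 regions, 25 higher and 16 lower in Het. That is a smaller share than over all regions of the same fit, where 371 of 237287 (0.156%) were called.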

How the results depend on the processing

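The count of 803 Het calls was kept within 1.5 times by 10 of the 30 alternatives and moved further by the other 20. It was 4 without a sex term, 24 with the near-empty directions as covariates, 371 without a filter, 1242 with quantile normalization, 1206 with cyclic loess, 20389 with array weights, 2 at an adjusted p under 0.01, 4109 under 0.1 and 0 in males or females alone, and 3 to 986 without single libraries. A kept count was not always a kept set. Over the 10 alternatives within 1.5 times, the regions shared with the 803 ran from 348 to 802. The lowest was 348 of 696 without the empirical Bayes trend, and the highest 802 of 816 with 0.1 added to CPM. The directions of the 4 named regions held in every setting run, and all_pfc_peak_97085 was called in 26 of 28 (not within 1 sex), all_pfc_peak_128267 in 24 of 28, and all_pfc_peak_59358 and all_pfc_peak_2856 in 20 of 27 each. The 12543 sex calls became 3135 with the covariates, 7205 at 5 CPM and above, 41595 with array weights, 2899 and 22732 at an adjusted p under 0.01 and 0.1, and 5231 to 14693 without single libraries. The genotype by sex count of 0 became 14 (0.00809% of tested regions) with the covariates. The genotype share of component 2 ran from 23.6% to 71.7% without single libraries, and the difference in the 10% most open regions from -0.770 to -0.419 percentage points. For counts that moved, the cause was not tested. The fits within 1 sex also used fewer libraries, and the part of that in their counts was not tested either. Unknown depth limits what can be said of low regions.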
